A study of Mus musculus with 6 samples.

Results

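The genes described here encode the mitochondrial protein import machinery: the translocases of the outer membrane (Tomm genes) and inner membrane (Timm genes), the sorting, oxidation and processing factors that work with them, and the chaperones and proteases that receive imported proteins in the matrix. They were chosen by symbol, as every gene on the array whose symbol begins with Timm or Tomm, plus Hspa9, Hspd1, Hspe1, Pmpca, Pmpcb, Dnajc19, Chchd4, Samm50, Lonp1 and Clpp. Of the 18194 genes that the array measured with a probe set of their own, 33 are such genes, read by 69 probe sets. Dnajc19, Tomm5 and Tomm6 are named on this array only beside another gene and are not among the 33. The Tomm6 antisense RNA Tomm6os and the pseudogene Timm29-ps1 are not named on it.

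Nearly all mitochondrial proteins are made in the cytosol and enter through these complexes. The TOM complex is the common entrance, SAM inserts barrel proteins into the outer membrane, small Tim chaperones escort hydrophobic proteins across the intermembrane space, TIM22 inserts carriers, and TIM23 with its ATP-driven motor passes presequence proteins into the matrix, where the presequence is cut off. The kidney, whose tubule cells are rich in mitochondria, depends on oxidative metabolism for salt and solute transport.

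The arrays compared whole kidneys of male mice lacking ERRα (ERRa KO), an orphan nuclear receptor that works with PGC-1 coactivators on genes of mitochondrial energy metabolism, with those of wild-type (WT) males. Both genotypes were 2 to 3 months old and kept on the same standard diet, and each had 3 biological replicates with 1 array each. The allele, the strain and the part of Esrra that was removed are not given in the labels, nor whether each replicate was a single animal, so p-values measure the spread between these samples. Left and right kidneys were pulverised as 1 sample, so all cell types are mixed, and fewer cells of a type cannot be told apart from less RNA per cell. Values are log2 expression values made by RMA, a method that corrects background, puts arrays on 1 scale and combines the probes of each set into 1 value. A level is therefore comparable between arrays for the same gene, and not between genes.

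The targeted gene Esrra read 6.66, 6.51 and 6.41 in ERRa KO kidneys, against 9.43, 9.43 and 9.52 in WT kidneys (log2 difference -2.93, SE 0.08, limma adjusted p = 9.84e-06). Of the PGC-1 coactivator genes, Ppargc1a read 10.19, 10.17 and 10.21 in ERRa KO kidneys, against 10.31, 10.30 and 10.39 in WT kidneys. Its log2 difference was -0.14 (SE 0.05, limma adjusted p = 0.347), and that of Ppargc1b was -0.01. The kidney marker Slc34a1, a proximal tubule phosphate transporter gene, read between 13.58 and 13.66 on all arrays. ERRa KO replicate 3 stood apart. The liver gene Alb read 12.07 there, against 6.48 and 6.80 in the other ERRa KO arrays and 6.59 to 6.77 in WT, and 16 measured liver genes sat at a median of 2.39 above their own mean over the 6 arrays. The main counts below are therefore also given without that array. Direction was taken from the series table by sample. A second deposited table carries exchanged genotype heads over the same values for all 45101 probe sets, while its fold change column equals the ERRa KO minus WT difference of the series table to within 7.8e-07.

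No import gene passed the threshold. At a limma adjusted p under 0.05, 0 of the 33 genes were called, beside 0.495% of all genes (90 of 18194, with 0.269% higher and 0.225% lower). At an unadjusted p under 0.05 there were 2, beside 12.4% of all genes: Timm8a1 on the lower side (6.2% of all genes) and Timm9 on the higher side (6.22%). Leaving out any 1 array other than WT replicate 1 left 1, Timm8a1. Signs were mixed: 15 had a lower mean in ERRa KO kidneys and 18 a higher one, where 47.4% of all genes had a lower mean. Their median log2 difference was 0.006 and that of all genes 0.007. Without ERRa KO replicate 3, the count with a lower mean was 13 and the median 0.03, and again 0 were called.

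In the brightest probe set of each gene, which stood for it, the differences were small and the arrays bounded them closely. They ran from -0.19 for Timm8a1 to 0.17 for Timm9, and 28 of 33 were under 0.1 in size. The 95% confidence interval of the difference, computed gene by gene, lay within a change of 1.2-fold in either direction for 30 of the 33 genes and within 1.3-fold for all 33. The exceptions to the 1.2-fold bound were Timm8a1, Timm9 and Tomm20l. These bounds do not cover the other probe sets of a gene, which ran from -0.23 (SE 0.11) for Hspa9 to 0.13 for Tomm20 and Tomm7. Among all genes, the smallest change that was called measured 0.36 on the log2 scale, and 0 import genes reached that size. Dnajc19, Tomm5 and Tomm6 lie outside these counts. A probe set naming Dnajc19 and its pseudogene read 10.61, 10.70 and 10.57 in ERRa KO, against 10.52, 10.45 and 10.40 in WT kidneys. These groups did not overlap, while those of its other shared probe sets did. Tomm5, named beside Gm8069, read 10.37, 10.33 and 10.38 in ERRa KO, against 10.51, 10.47 and 10.51 in WT kidneys, without overlap. The groups of Tomm6 overlapped.

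**Figure D1:**
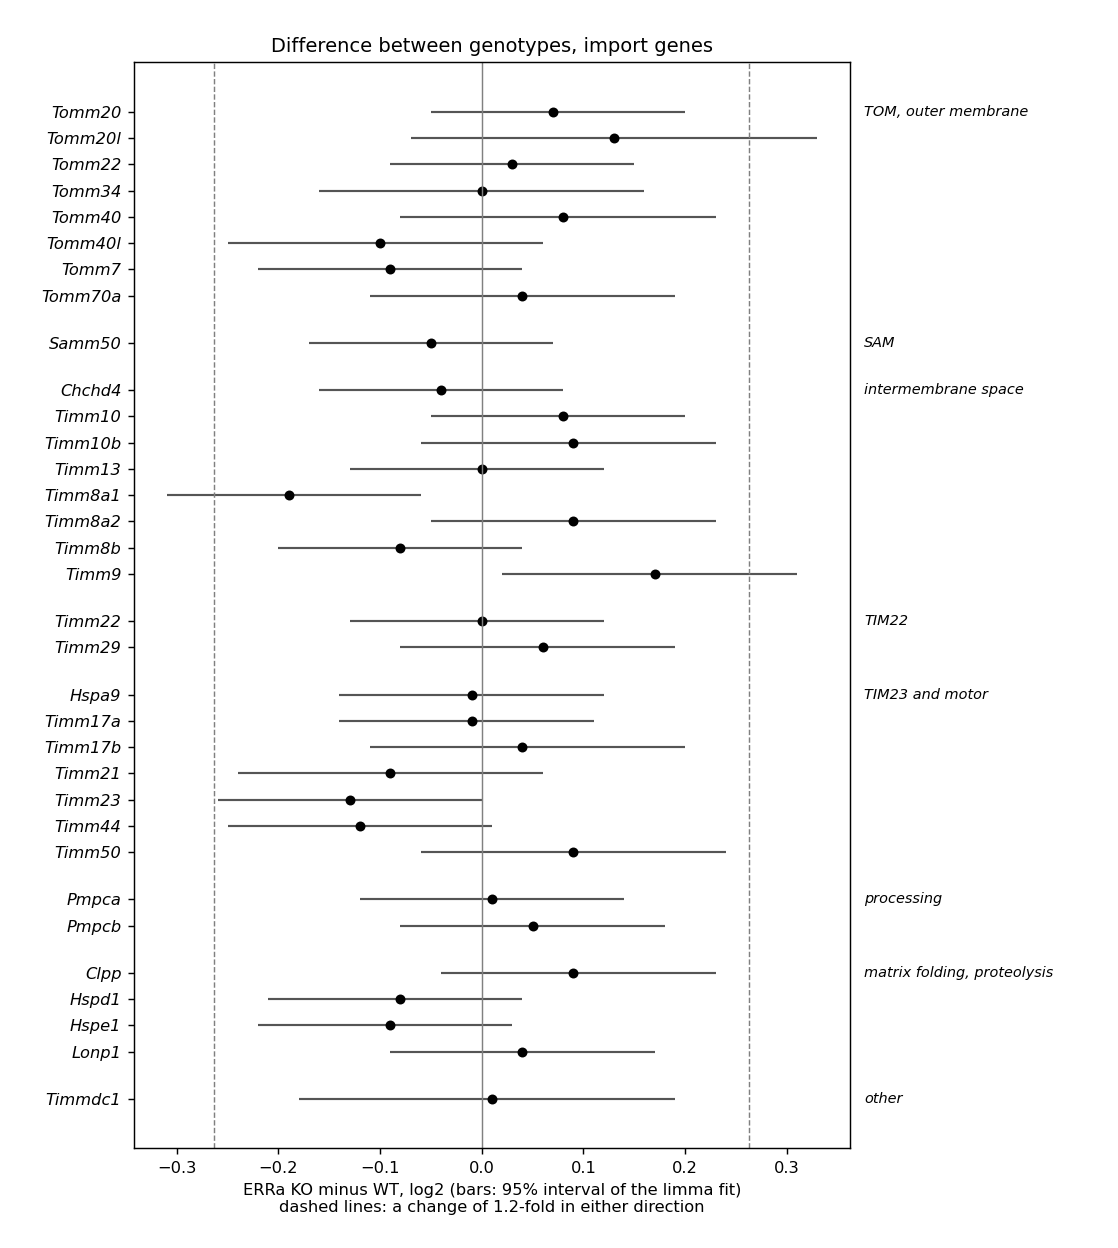
Difference between ERRa KO and WT kidneys on the log2 scale (x axis) for the 33 import genes (y axis), grouped by role, with 95% intervals of the limma fit (3 arrays per genotype). Each gene is shown by its brightest probe set. The interval of Timm8a1 (-0.31 to -0.06) lies below 0, that of Timm9 (0.02 to 0.31) above it, and 30 of 33 lie between the dashed lines at 1.2-fold.

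In 10 of the 33 genes (30.3%) the 2 genotypes were fully separated, with ERRa KO below WT in 6 and above it in 4. The shares over all genes were 18.7% in either direction, 9.56% lower and 9.11% higher. The 6 lower genes were Timm8a1, Timm8b, Timm23, Timm44, Tomm7 and Hspe1, and the 4 higher ones Timm9, Timm10, Tomm20 and Clpp. The gaps between the nearest arrays were small, as the plot of values by array shows.

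**Figure D2:**
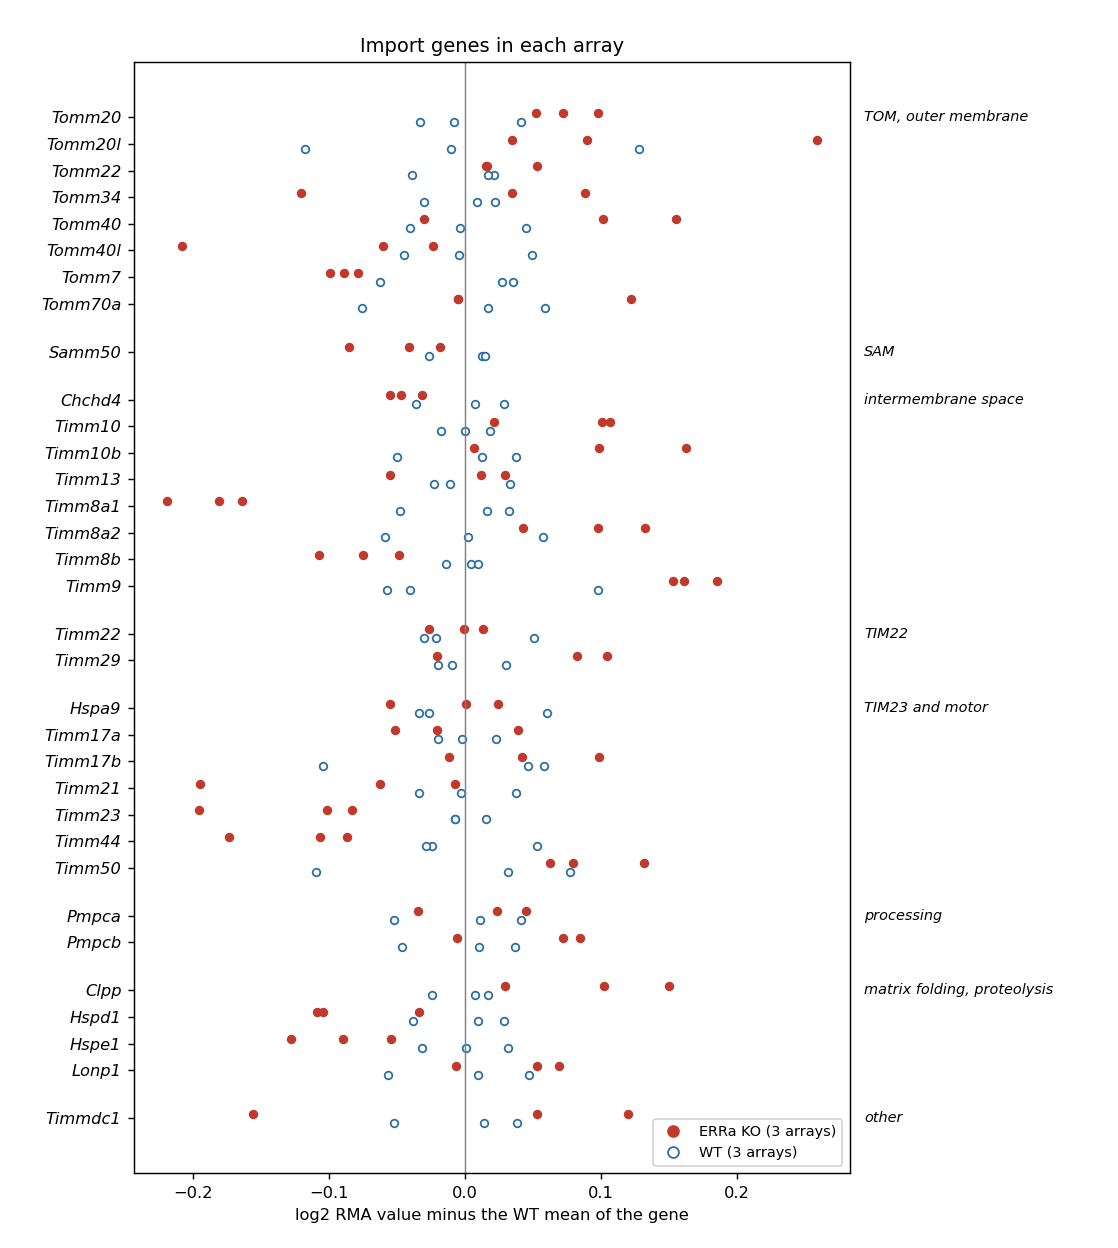
Log2 RMA value of each import gene in each array minus the gene's WT mean (x axis), with the genes grouped by role on the y axis. Filled points are the 3 ERRa KO arrays and open points the 3 WT arrays; in 10 genes the filled points all lie to one side of the open points, 6 to the left and 4 to the right.

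At the outer membrane, 0 of 8 measured TOM genes were called, and 6 read higher with a median of 0.03. Tomm20, the receptor for presequence proteins, read 12.34, 12.36 and 12.39 in ERRa KO kidneys, against 12.33, 12.26 and 12.28 in WT kidneys. The ERRa KO values all lay narrowly above the WT values, and the log2 difference was 0.07 (SE 0.05, adjusted p = 0.62). All 6 of its probe sets read higher, by 0.02 to 0.13. Its low-reading paralog Tomm20l had 3.90, 3.85 and 4.07 in ERRa KO kidneys, against 3.80, 3.94 and 3.70 in WT kidneys, with overlapping groups and the widest interval of the genes (-0.07 to 0.33). Its difference of 0.13 was 0.062 without ERRa KO replicate 3 and 0.069 without WT replicate 3.

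The channel-forming Tomm40 read 8.95, 8.90 and 8.76 in ERRa KO kidneys, against 8.84, 8.75 and 8.79 in WT kidneys (difference 0.08, adjusted p = 0.689). Its paralog Tomm40l had the opposite sign, with 8.67, 8.71 and 8.53 in ERRa KO kidneys, against 8.73, 8.78 and 8.69 in WT kidneys (difference -0.10, adjusted p = 0.612). The groups of both paralogs overlapped, and neither difference exceeded the scatter. In both, ERRa KO replicate 3 was the lowest of the 6 arrays or next to it. Without it Tomm40 stood at 0.13 and Tomm40l at -0.04.

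Tomm7, a small subunit that in yeast tunes the assembly of the TOM complex, read 10.04, 10.05 and 10.06 in ERRa KO kidneys, against 10.16, 10.07 and 10.17 in WT kidneys. The 3 ERRa KO arrays were nearly alike and all lay below WT, with a difference of -0.09 (SE 0.05, adjusted p = 0.567). Of its 4 probe sets 3 read lower and the dimmest read 0.13 higher, and their average stood at -0.039. The remaining TOM genes stayed near 0. They were the central receptor gene Tomm22 (0.03), the receptor gene for carriers Tomm70a (0.04), whose 5 probe sets ran from -0.13 to 0.04, and Tomm34, which encodes a cytosolic cochaperone of import (0.001).

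Samm50, the barrel-inserting core of SAM, read 11.07, 11.05 and 11.00 in ERRa KO kidneys, against 11.06, 11.10 and 11.10 in WT kidneys (difference -0.05, interval -0.17 to 0.07, adjusted p = 0.757). The groups overlapped.

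Genes of the intermembrane space held both ends of the range. Of 8 measured genes 0 were called, 4 read lower and 4 higher. Timm8a1, whose human counterpart TIMM8A is mutated in deafness-dystonia syndrome, read 9.10, 9.06 and 9.12 in ERRa KO kidneys, against 9.30, 9.23 and 9.31 in WT kidneys. Every ERRa KO array lay below every WT array, and the means differed by more than the SD within either group. The means were 9.09 ± 0.03 in ERRa KO and 9.28 ± 0.04 in WT kidneys (SD, n = 3 each). The fold was 0.88, and the log2 difference of -0.19 (SE 0.05) had a limma adjusted p of 0.214, above the threshold. Its dimmer probe set read lower as well, by a difference of -0.09, and leaving out any 1 array gave differences from -0.21 to -0.17.

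Timm8b is a paralog of Timm8a1, whose counterparts in human cells and yeast pair with that of Timm13. It read 10.85, 10.83 and 10.79 in ERRa KO kidneys, against 10.91, 10.91 and 10.89 in WT kidneys. The groups did not overlap, with a difference of -0.08 (SE 0.05, adjusted p = 0.599). Timm13 itself stood at -0.004, with values of 11.29 to 11.37 in ERRa KO and 11.32 to 11.38 in WT kidneys. The third paralog, Timm8a2, read between 2.61 and 2.70 in ERRa KO and between 2.51 and 2.62 in WT kidneys, near the bottom of the array's range (difference 0.09, adjusted p = 0.588).

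Timm9 and Timm10, which form the main chaperone for carrier proteins, read in the other direction. Timm9 had 8.48, 8.44 and 8.45 in ERRa KO kidneys, against 8.39, 8.25 and 8.23 in WT kidneys. The groups did not overlap, WT replicate 1 lying closest to the ERRa KO values. The fold was 1.12, and the log2 difference of 0.17 (SE 0.06) had an adjusted p of 0.327. A second probe set of Timm9, at a level of 3.72, read -0.02, and averaging both gave 0.075, with Timm9 no longer at an unadjusted p under 0.05. Timm10 read 9.78, 9.78 and 9.70 in ERRa KO kidneys, against 9.70, 9.68 and 9.66 in WT kidneys (difference 0.08, adjusted p = 0.618), separated by under 0.01. Timm10b, which tethers these chaperones to the inner membrane, stood at 0.09 with overlapping groups, and all 4 of its probe sets were positive. Chchd4, the oxidoreductase gene of the disulfide relay that folds small Tims, stood at -0.04.

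The promoters of Timm8b and Timm9 are shown because Timm8b held the only match among the import genes to the response element of the ERR receptors and Timm9 read highest relative to WT. RefSeq promoter windows (GRCm38.p6, 250 bases before to 50 after the start site) were found for 29 of the 33 genes, in 32 windows. The element was searched as TNAAGGTCA on both strands, where N is any base. It lay in 1 of these 32 windows (3.12%) and in 1.28% of 32851 windows of all genes. The core of the site of NRF1, a regulator of mitochondrial genes, was searched as GCGCATGC and lay in 1 window, that of Timm13, and in 2.71% of all. Only this exact run was searched, so forms of the site with another base were not counted. The Timm8b window holds gcgtgcgc, which departs by 1 base from the searched run read on the other strand. The pair of inverted heat shock units GAANNTTC lay in 3 windows (9.38%), those of Timm9, Hspd1 and Hspe1, and in 7.86% of all. The matches of Hspd1 and Hspe1 are the same bases, read on opposite strands of overlapping windows, and so are not separate sites. No match overlapped one of another motif. A match is a run of letters and not a shown binding site. In the Timm8b window (chr9:50603651-50603950, plus strand) capitals mark the ERR element, which begins 96 bases before the start site, and in the Timm9 window (chr12:71136626-71136925, minus strand) they mark the heat shock pair, which begins 197 bases before it.
Timm8b: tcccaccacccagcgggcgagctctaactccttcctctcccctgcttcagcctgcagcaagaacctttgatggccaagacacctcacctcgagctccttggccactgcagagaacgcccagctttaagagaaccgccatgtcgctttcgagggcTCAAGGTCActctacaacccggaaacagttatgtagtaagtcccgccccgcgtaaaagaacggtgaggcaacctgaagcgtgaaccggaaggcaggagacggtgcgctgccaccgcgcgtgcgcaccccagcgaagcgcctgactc
Timm9: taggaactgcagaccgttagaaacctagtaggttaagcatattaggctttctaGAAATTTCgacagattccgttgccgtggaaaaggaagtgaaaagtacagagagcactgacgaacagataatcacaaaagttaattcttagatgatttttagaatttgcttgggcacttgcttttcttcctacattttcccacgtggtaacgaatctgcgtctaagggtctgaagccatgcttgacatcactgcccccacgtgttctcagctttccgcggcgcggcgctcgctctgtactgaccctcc

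In the TIM23 presequence translocase and its motor 0 of 7 measured genes were called, and 5 read lower and 2 higher. Timm23, the channel subunit, read 11.32, 11.30 and 11.20 in ERRa KO kidneys, against 11.42, 11.39 and 11.39 in WT kidneys. All ERRa KO arrays lay below the tight WT group, with a difference of -0.13 (SE 0.06, adjusted p = 0.419). Without ERRa KO replicate 3, the lowest array, it was -0.09. Timm44, which anchors the motor at the channel, read 9.83, 9.82 and 9.75 in ERRa KO kidneys, against 9.90, 9.89 and 9.97 in WT kidneys. These groups did not overlap either, at -0.12 (SE 0.06, adjusted p = 0.442), and all 3 of its probe sets were negative (-0.12 to -0.07).

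The paralogs Timm17a and Timm17b, alternative partners of Timm23, showed no separation. Timm17a read 10.84, 10.74 and 10.78 in ERRa KO kidneys, against 10.79, 10.78 and 10.82 in WT kidneys (difference -0.01, interval -0.14 to 0.11). Timm17b read 8.68, 8.74 and 8.63 in ERRa KO kidneys, against 8.68, 8.70 and 8.53 in WT kidneys (difference 0.04, interval -0.11 to 0.20), and its second probe set had the opposite sign (-0.09). The presequence receptor gene Timm50 stood at 0.09 and Timm21, which links TIM23 to respiratory chain complexes, at -0.09. Both had overlapping groups. Timm50 read 0.007 with its 3 probe sets averaged and 0.036 without WT replicate 3, and Timm21 -0.035 without ERRa KO replicate 3.

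Hspa9, the motor chaperone known as mortalin, depended on which probe set was read. The brightest of 5 had 11.50, 11.48 and 11.42 in ERRa KO kidneys, against 11.54, 11.44 and 11.45 in WT kidneys, a difference of -0.01 (adjusted p = 0.96). All 5 were negative, and the largest reached -0.23. Another, of a middle level, had 8.32, 8.35 and 8.34 in ERRa KO kidneys, against 8.53, 8.40 and 8.58 in WT kidneys, without overlap (difference -0.17, adjusted p = 0.43 over all probe sets). Averaging the 5 gave -0.10.

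In the carrier translocase TIM22, the channel gene Timm22 read 9.42, 9.41 and 9.38 in ERRa KO kidneys, against 9.46, 9.39 and 9.38 in WT kidneys (difference -0.005, adjusted p = 0.979). Timm29, another TIM22 subunit in human cells, read 9.44, 9.42 and 9.32 in ERRa KO kidneys, against 9.37, 9.33 and 9.32 in WT kidneys (difference 0.06, adjusted p = 0.747). Both pairs of groups overlapped.

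Counted over probe sets, 35 of 69 had a lower mean in ERRa KO kidneys, beside 49.1% of all. In the limma fit over all probe sets 0 of the 69 passed the threshold, beside 0.111% of all, and 3 had an unadjusted p under 0.05, beside 10.9%. A p under 0.05 in the authors' deposited table was found for 13 of the 69, beside 9.51% of all probe sets. Both probe sets of Timm8a1 were among the 13, with p-values in the authors' deposited table of 0.00312 and 0.0473.

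**Figure D3:**
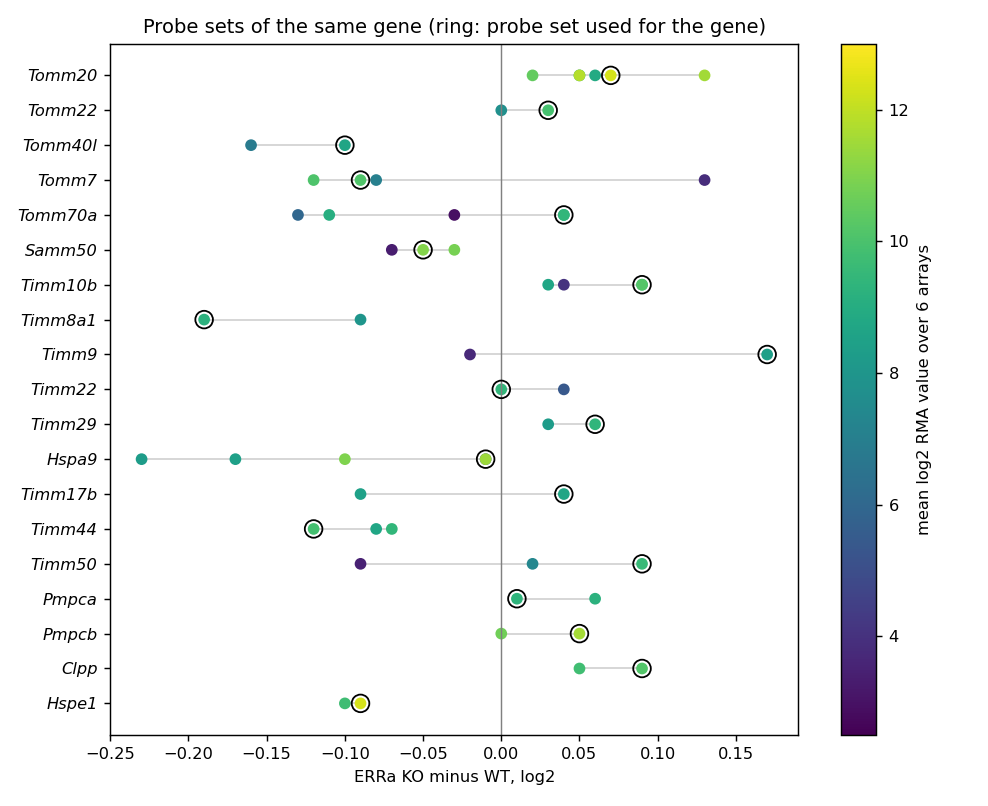
Log2 difference between ERRa KO and WT kidneys (x axis) of every probe set of the 19 import genes with more than 1 (y axis), coloured by the probe set's mean log2 level over the 6 arrays; the ring marks the probe set used for the gene. In 12 genes all probe sets share the sign of the ringed one, and Hspa9 spreads from -0.23 to -0.01.

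Neither gene of presequence processing was called. Pmpca, the substrate-binding subunit of the processing peptidase, read 9.35, 9.33 and 9.28 in ERRa KO kidneys, against 9.35, 9.32 and 9.26 in WT kidneys (difference 0.01, interval -0.12 to 0.14). Pmpcb, the catalytic subunit, read 11.66, 11.64 and 11.57 in ERRa KO kidneys, against 11.58, 11.61 and 11.52 in WT kidneys (difference 0.05, interval -0.08 to 0.18). Both intervals exclude changes of 1.2-fold.

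In the matrix, the chaperonin gene Hspd1 and its cochaperonin gene Hspe1 read slightly lower, while the protease genes Clpp and Lonp1 read slightly higher. None of the 4 was called. Hspd1 read 12.77, 12.77 and 12.84 in ERRa KO kidneys, against 12.89, 12.84 and 12.91 in WT kidneys. The highest ERRa KO value lay just above the lowest WT value, so the groups overlapped, and the difference was -0.08 (SE 0.05, adjusted p = 0.598). Hspe1 read 12.33, 12.26 and 12.29 in ERRa KO kidneys, against 12.38, 12.35 and 12.41 in WT kidneys, without overlap (difference -0.09, SE 0.05, adjusted p = 0.551). Its other probe set gave -0.10.

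Clpp, the proteolytic core of the ClpXP protease, read 10.26, 10.21 and 10.14 in ERRa KO kidneys, against 10.12, 10.09 and 10.13 in WT kidneys (difference 0.09, SE 0.06, adjusted p = 0.557). The groups were narrowly separated, and both its probe sets were positive. Lonp1, the other main matrix protease, read 10.10, 10.08 and 10.02 in ERRa KO kidneys, against 10.04, 10.07 and 9.97 in WT kidneys (difference 0.04, adjusted p = 0.828). Timmdc1, which carries the prefix but encodes an assembly factor of complex I, stood at 0.006, with the widest ERRa KO scatter of the genes (7.10 to 7.38, against 7.21 to 7.30 in WT kidneys).

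Hspd1 and Hspe1 lie head to head. RefSeq gives Hspd1 a pair of start sites here, and of its 2 promoter windows 1 shares 285 bases with the Hspe1 window and the other 4. The Hspe1 window (chr1:55087898-55088197, GRCm38.p6, plus strand) is shown because it covers both neighbours, which read slightly lower side by side, and holds the heat shock pair found in both. Capitals mark the inverted heat shock pair, which begins 84 bases before the Hspe1 start site and, on the other strand, 139 bases before the Hspd1 start site whose window shares 285 bases. The letters cggaa right after the capitals add a further GAA unit at the same spacing. The search covered only the pair, so such longer runs were not marked or counted.
Hspe1: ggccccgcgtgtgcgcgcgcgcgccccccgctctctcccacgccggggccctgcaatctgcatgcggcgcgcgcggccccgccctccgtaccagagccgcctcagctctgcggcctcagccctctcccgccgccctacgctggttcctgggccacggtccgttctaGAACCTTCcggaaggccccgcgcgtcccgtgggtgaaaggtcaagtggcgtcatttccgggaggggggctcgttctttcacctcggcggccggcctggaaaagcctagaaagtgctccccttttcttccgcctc

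Among 20 measured chaperone genes of the cytosol and endoplasmic reticulum, 16 had a higher mean in ERRa KO kidneys, with a list median of 0.23 (0.19 without ERRa KO replicate 3), and 12 had an unadjusted p under 0.05 (60.0%, beside 12.4% of all genes). A lower mean was found for 20.0% of the list and 47.4% of all genes. ERRa KO lay fully above WT in 10 of the 20, beside 9.11% of all genes, and fully below it in 3, beside 9.56%. The WT arrays were spread. Relative to each gene's mean over the 6 arrays, the list median was 0.04, -0.11 and -0.24 in WT replicates 1, 2 and 3. It was 0.12, 0.06 and 0.14 in ERRa KO replicates 1, 2 and 3. Limma called 1 of the 20, beside 0.495% of all genes. Only Hspa4l, an Hsp110-family gene, was called, and it fell: 8.32, 8.27 and 8.39 in ERRa KO kidneys, against 8.74, 8.83 and 8.78 in WT kidneys (difference -0.46, SE 0.06, adjusted p = 0.0328). The difference was as large without ERRa KO replicate 3 (-0.49, adjusted p = 0.0545). Leaving out any 1 of the 6 arrays gave differences from -0.49 to -0.43, and each put the adjusted p above the threshold (0.0545 to 0.128). The other 2 genes fully below WT were the Hsp90 family members Hsp90aa1 (-0.21, adjusted p = 0.326) and Hsp90b1 of the endoplasmic reticulum (-0.31, adjusted p = 0.302), and neither was called. The heat-inducible Hsp70 gene Hspa1a read 9.25, 8.64 and 8.89 in ERRa KO kidneys, against 8.19, 7.91 and 7.77 in WT kidneys. The groups did not overlap, with a wide scatter (difference 0.96, SE 0.16, adjusted p = 0.0674). Its near-identical copy Hspa1b can share its probes, so the 2 cannot be told apart with certainty. Whether mitochondrial and cytosolic chaperones differ in their response was not tested.

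**Figure D4:**
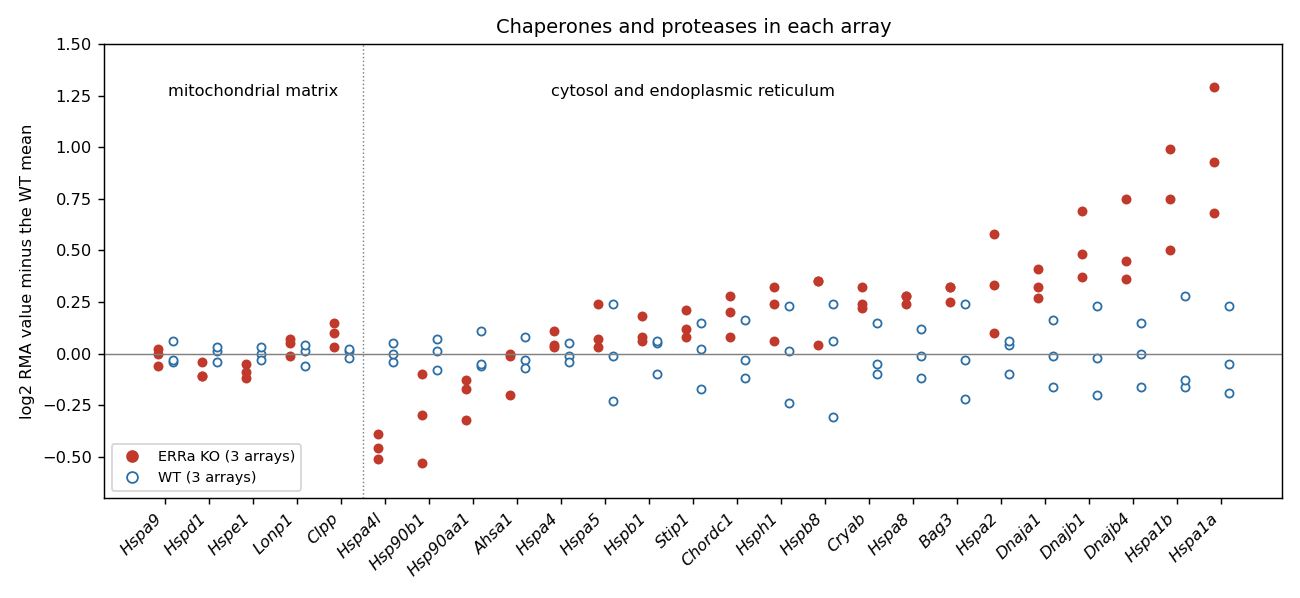
Log2 RMA value in each array minus the gene's WT mean (y axis) for 5 matrix chaperone or protease genes (left of the dotted line) and all 20 measured chaperone genes of the cytosol and endoplasmic reticulum (right, in order of their difference). Filled points are the 3 ERRa KO arrays and open points the 3 WT arrays. The matrix genes stay within 0.2 of the WT mean, while the list on the right runs from -0.46 for Hspa4l to 0.96 for Hspa1a, with 4 genes lower and 16 higher.

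Of 29 measured genes in a list of other import and mitochondrial quality control factors, 0 were called by limma, 17 had a lower mean and the list median was -0.02. An unadjusted p under 0.05 was found for 8 of them (27.6%, beside 12.4% of all genes), and for 5 without ERRa KO replicate 3 (17.2%, again beside 12.4%). Chchd3, a subunit of the cristae-organising MICOS complex, had the smallest p, with 10.76, 10.72 and 10.73 in ERRa KO kidneys, against 10.98, 10.91 and 10.97 in WT kidneys (difference -0.22, SE 0.05, adjusted p = 0.149). Clpx, the unfoldase partner of Clpp, read 10.21, 10.33 and 10.19 in ERRa KO kidneys, against 10.49, 10.47 and 10.42 in WT kidneys (difference -0.22, SE 0.06, adjusted p = 0.208). Neither pair of groups overlapped, and Clpx and Clpp had opposite signs.

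Of 76 measured Mrpl and Mrps genes, which encode mitochondrial ribosomal proteins, 41 had a lower mean (31 without ERRa KO replicate 3) and the list median was -0.006. Limma called 0 of them and gave 4 an unadjusted p under 0.05 (5.26%, beside 12.4% of all genes). Of 44 measured Nduf genes, mostly complex I subunits, 32 had a lower mean, with or without that array, and the list median was -0.06 (-0.04 without it). Limma called 0 of these and gave 12 an unadjusted p under 0.05 (27.3%), or 7 without that array (15.9%), each beside 12.4% of all genes. These counts describe the lists, and the difference between them was not tested.

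**Figure D5:**
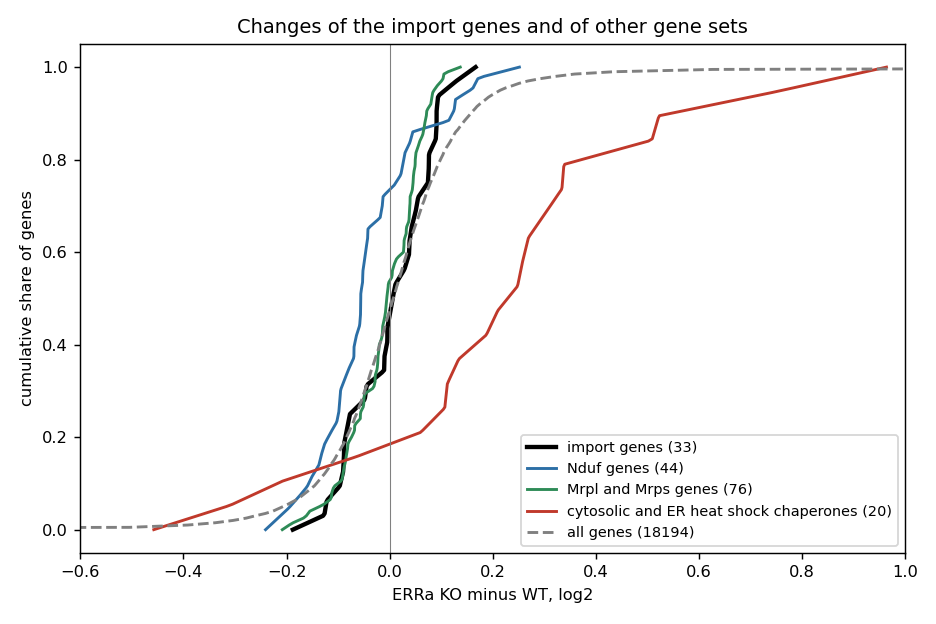
Cumulative share of genes (y axis) against the log2 difference between ERRa KO and WT kidneys (x axis, shown from -0.6 to 1.0) for the import genes, 3 other sets and all genes, with gene numbers in the legend. The import genes cross the middle of the axis at 0.006, close to all genes (0.007), the Nduf genes at -0.06 and the cytosolic and endoplasmic reticulum chaperones at 0.23.

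Marker lists of several cell types leaned to 1 side, where 47.4% of all genes had a lower mean. Thick ascending limb markers read lower in 6 of 7 genes (median -0.29, or -0.35 without ERRa KO replicate 3). Intercalated cell markers read lower in 6 of 7 (median -0.32), or 5 of 7 without that array (median -0.30). Both cell types are rich in mitochondria. Neither list held a called gene (smallest limma adjusted p 0.052 and 0.0668). Proximal tubule markers were split 5 to 5 (median -0.05), but without ERRa KO replicate 3 they read lower in 7 of 10 (median -0.07). Distal tubule markers read lower in 4 of 5, or 5 of 5 without that array. Muscle markers read lower in 5 of 7 and podocyte markers in 0 of 6, with or without it. In these 3 lists 0 were called, beside 0.495% of all genes. Brown fat and adipocyte markers had a higher mean in 6 of 6 (median 0.70, or 0.80 without ERRa KO replicate 3), but unevenly. ERRa KO lay fully above WT in 3 of the 6, beside 9.11% of all genes: Cox8b, Cidea (difference 0.99, limma adjusted p = 0.199) and Cox7a1 (0.40, adjusted p = 0.112). An unadjusted limma p under 0.05 was found for 5 of the 6, beside 12.4% of all genes. The adipocyte gene Adipoq stood at 0.08 with overlapping groups, and Lep read low on all arrays. Ucp1 had the largest difference (1.18), yet its groups overlapped. Of the 6 markers 1 was called, beside 0.495% of all genes. Cox8b, a cytochrome c oxidase subunit gene of brown fat and muscle, rose, with 7.26, 7.29 and 6.95 in ERRa KO kidneys, against 6.09, 5.90 and 6.35 in WT kidneys (difference 1.06, SE 0.13, limma adjusted p = 0.0328). The gene still passed with ERRa KO replicate 3 left out (1.17, adjusted p = 0.0379) or WT replicate 3 left out (1.18, adjusted p = 0.0385). It was lost without ERRa KO replicate 1 or 2 or WT replicate 1 or 2 (0.95 to 1.05, adjusted p 0.089 to 0.118). ERRa KO replicate 3 was the lowest of the ERRa KO arrays in 22 of the 33 import genes (66.7%, beside 41.4% of all genes). The part of these in the values of the import genes was not tested.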

How the data were processed

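Total RNA from whole kidneys of 3 ERRa KO and 3 WT male mice was labelled and hybridised to 1-colour arrays, 1 per sample, per the labels' protocols. The number of arrays limits the precision. The submitters' processing notes name RMA for the deposited log2 values. Its settings were not stated there. Array medians ran from 5.01 to 5.06. A second deposited table gives the authors' log2 fold changes and the authors' unadjusted p-values, with the test unnamed in the file header. It was used to check direction and for a count of p-values.

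Of 45101 probe sets, 64 control probe sets were left out. GEO's platform annotation named 1 gene for 34945, several for 932 and none for 9160, and 34741 were found by Entrez identifier in the GRCm38.p6 gene table. Only probe sets naming 1 gene were used. The probe set with the highest mean over the 6 arrays stood for a gene. Genotype was fitted with limma 3.58.1 (R 4.3.3, lmFit and eBayes, two-sided) over 18194 genes, with Benjamini-Hochberg adjustment over all of them and a threshold of 0.05. Differences are ERRa KO minus WT, and intervals are the fit's 95% intervals for each gene. There was no filter on low values. On simulated data over the same 18194 genes the fit recovered 87% of seeded log2 changes of 0.5 and 99% of those of 1. The noise was drawn as normal, with each gene's SD pulled toward the median SD. Changes as small as those of the import genes were not seeded, so the run cannot tell how often they would be called.

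Any pair of arrays shared at most 131 identical values, so all 6 counted as samples. The members, lists and named genes were chosen with earlier results of these data known. Values in every array are given for import genes at an unadjusted p under 0.05, the 2 smallest p of each role, and fixed paralog or partner pairs. Other pathway lists were those of import and quality control factors, of cytosolic and endoplasmic reticulum chaperones, and of ERRα with its coactivators. In these, genes past the threshold or with the 2 smallest p are given. In the marker lists the rule took only genes past the threshold. Timm10, Hspa9, Hsp90aa1 and Hsp90b1 were added after their values were seen.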

Additional observations from a re-analysis of the deposited data

How the results depend on the processing

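Under 12 alternatives (averaged probe sets, genes above the median level, a second quantile normalization, array weights, an intensity trend with robust variance, the replicate block and each array left out) and in a fit over all probe sets, 0 import genes passed the threshold. The smallest adjusted p in any of them was 0.085. Of the 31 genes run in all 12, 22 kept their sign, and so did Tomm20l and Timm8a2 in the 11 they entered. The count of genes at an unadjusted p under 0.05 was 2, against 3 after renewed quantile normalization, 4 above the median level, 6 with the intensity trend and 1 to 2 with an array left out. It was 1, Timm8a1, without ERRa KO replicate 1, 2 or 3 or WT replicate 2 or 3.

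Signs turned only in genes near 0. Averaged probe sets gave Timm17b -0.022, Tomm70a -0.039 and Timm22 0.019, renewed quantile normalization gave Timm22 0.0, and array weights gave Timm13 0.007. With 1 array left out, Hspa9 ran from -0.027 to 0.02, Pmpca from -0.015 to 0.034, Timm13 from -0.022 to 0.021, Timm17a from -0.036 to 0.009, Timm17b from -0.009 to 0.072, Timm22 from -0.02 to 0.021, Timmdc1 from -0.052 to 0.086, Tomm34 from -0.043 to 0.061 and Tomm70a from -0.005 to 0.067. The cause was not tested. Values that moved by over 1.5 times without turning were also those of Timm10b without ERRa KO replicate 1 (0.053), Tomm40 without ERRa KO replicate 1 (0.036), Timm29 without ERRa KO replicates 1 (0.031) and 3 (0.093), Tomm20l with array weights (0.074) and without WT replicate 2 (0.192), and Pmpcb with averaged probe sets (0.024) and 1 array out (0.027 to 0.078).

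No pairing by replicate number was seen: deviations from the genotype means correlated at -0.04, 0 and -0.08 for equal numbers. Unequal numbers gave -0.07 to 0.1. With 3 arrays per genotype this check cannot exclude a pairing. With the replicate block 2 genes had an unadjusted p under 0.05 and 15 read lower, as without it. Low signal limits Tomm20l and Timm8a2, the 2 genes below the median level. Tomm7, Samm50, Timm8a2 and Hspe1 were read by probe sets whose names mark possible sharing of probes with other transcripts.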

Other observations

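Tomm70a gave mixed readings from its 5 probe sets. The probe set at a level of 5.98 read 5.91, 5.90 and 5.95 in ERRa KO kidneys, against 6.10, 5.99 and 6.04 in WT kidneys, without overlap (difference -0.13, limma adjusted p = 0.506 over all probe sets), while the brightest read 0.04. It was picked out after its values were seen.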
